A study of Rattus norvegicus with 8 samples.

Results

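The genes described here encode the subunits of the respiratory chain and of ATP synthase, together with a few factors that share their names. They were taken from the deposited table by symbol, as protein-coding rows whose names begin with Nduf, Uqcr, Cox4 to Cox8, Atp5 or the mitochondrial prefixes Mt-nd, Mt-co, Mt-cyb and Mt-atp, plus Sdha to Sdhd. This gave 105 of the 15590 genes listed, by a rule that uses names and no measured value. The 105 genes comprised 80 nuclear-encoded subunits, 13 subunits encoded by the mitochondrial genome, 8 complex I assembly factors (Ndufaf1 to Ndufaf8), the ATP synthase inhibitor Atp5if1, and 3 genes kept apart, namely Ndufa1, whose values stand out in these libraries, and the muscle isoforms Cox6a2 and Cox8b. The muscle isoform Cox7a1 and its partner Cox7a2 were not analysed here.

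RNA was sequenced from right-leg Achilles tendons of male wild-type SD rats aged 8 to 10 weeks, in 4 libraries per group. The 0 h p.r. (post-run) rats were killed immediately after a single 1 h run on a treadmill at a 10° incline and 20 m/min, with airflow and mild electric stimulation to keep them running, and the naïve control (NC) rats kept to cage activity. By the published methods the controls were killed along with a later post-run group, so running and the time of killing cannot be told apart. Whole tendon was pulverized, so every value is an average over all cells present, and fewer cells of a type cannot be told apart from less RNA per cell. Libraries are numbered 1 to 4 within each group. The labels do not say whether the numbers pair them, and they were not taken as a pairing.

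Electrons from NADH enter the chain at complex I and those from succinate at complex II, pass through complex III and cytochrome c to complex IV, where oxygen is reduced, and the proton gradient that forms drives ATP synthase, or complex V. All complexes except complex II contain proteins from both genomes: the nuclear genes each have a transcript of their own, while the mitochondrial genes are cut from long transcripts that cover almost the whole circular genome. Tendon cells are sparse and have a low respiratory rate compared with skeletal muscle, and several complex IV subunits exist as a ubiquitous isoform and a further isoform used by heart and skeletal muscle.

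The recovered depth was 10660131 to 17464752 reads per library over the listed genes other than Mt-co1, lowest in NC replicate 2. The reads of Mt-co1 were not recovered. The deposited scaling sets the typical gene equal between libraries, so the summed FPKM differ, at 554130 to 580360 in the other controls but 900138 in NC replicate 2, and at 576668 to 648441 in the other runners but 746030 in 0 h p.r. replicate 1. The tenocyte markers were all present, with a summed level of 7741 to 13446 FPKM (fragments per kilobase of gene, as scaled between libraries by the authors) in NC and 10959 to 22656 FPKM at 0 h p.r., and 1 of 12 was called, where 5.72% of all tested genes were called. Skeletal muscle markers were also present in every library, save Myl2, which was listed at 0 in 0 h p.r. replicate 3. The 26 tested markers summed to 7630 to 11849 FPKM in NC and to 1714 to 50483 FPKM at 0 h p.r., with the highest sum in 0 h p.r. replicate 1 and the lowest in replicate 4. Adipocyte markers summed to 3340 to 6856 FPKM in NC and 1122 to 2465 FPKM at 0 h p.r., with 7 of 12 called lower, against 2.23% of all tested genes. Bone markers summed to 1850 to 3972 FPKM in NC and 2266 to 4918 FPKM at 0 h p.r., with 7 of 7 differences above 0, a median of 1.39 on the log2 scale and 1 called higher, against 3.49% of all tested genes. Cartilage markers summed to 19.0 to 105 FPKM in NC and 112 to 419 FPKM at 0 h p.r., with 5 of 6 differences above 0, a median of 1.85 and 0 called. Bglap, Sp7 and Col10a1 of these lists were at 0 in at least 1 library. Of the endothelial markers 1 of 9 was called higher, of the macrophage markers 0 of 10, of the erythroid markers 0 of 3, and of the brown adipocyte markers 1 of 4 was called lower. The part of these markers in the results on the respiratory genes was not tested, except for muscle where a value is given. In deposited FPKM the respiratory genes of NC replicate 2 and 0 h p.r. replicate 1 stood above the rest of their groups, which for the nuclear genes of NC replicate 2 depends on the scaling.

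The promoters shown are those of the genes whose levels varied most between libraries, with a ubiquitous isoform for comparison. Promoter windows of RefSeq (build GRCr8) were matched by symbol to 77 of the 89 nuclear symbols, and the window of Cox6a1 was not among them. Each is printed from 250 bases before the annotated start to the base before it, 5′ to 3′ on the gene's strand, which is the minus strand in these 4 genes. Capitals mark matches on either strand to the E-box CANNTG bound by muscle factors such as MyoD, the MEF2 motif CTANNNNTAG, the ETS motif CCGGAAG bound by GABP, the CRE TGACGTCA, the TATA box TATAAA, the NRF1 motif GCGCNNGCGC and the YY1 motif AAGATGGC. The windows lay at chr1:192219717-192219966 for Cox6a2, chr1:205408274-205408523 for Cox8b, chr1:213833624-213833873 for Cox8a and chrX:121293556-121293805 for Ndufa1.
Cox6a2: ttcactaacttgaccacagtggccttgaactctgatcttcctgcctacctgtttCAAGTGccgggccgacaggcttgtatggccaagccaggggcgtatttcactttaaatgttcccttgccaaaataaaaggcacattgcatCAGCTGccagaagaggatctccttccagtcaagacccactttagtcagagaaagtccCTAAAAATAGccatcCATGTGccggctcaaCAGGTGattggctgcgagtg
Cox8b: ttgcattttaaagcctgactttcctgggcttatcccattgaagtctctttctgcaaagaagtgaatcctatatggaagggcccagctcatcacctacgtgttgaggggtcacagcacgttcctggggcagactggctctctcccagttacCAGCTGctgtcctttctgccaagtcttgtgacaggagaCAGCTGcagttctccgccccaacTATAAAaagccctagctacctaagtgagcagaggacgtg
Cox8a: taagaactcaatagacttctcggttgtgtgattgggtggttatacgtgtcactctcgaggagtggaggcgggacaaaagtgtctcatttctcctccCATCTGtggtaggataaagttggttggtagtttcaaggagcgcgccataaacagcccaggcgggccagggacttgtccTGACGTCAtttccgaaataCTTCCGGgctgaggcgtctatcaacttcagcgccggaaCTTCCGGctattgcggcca
Ndufa1: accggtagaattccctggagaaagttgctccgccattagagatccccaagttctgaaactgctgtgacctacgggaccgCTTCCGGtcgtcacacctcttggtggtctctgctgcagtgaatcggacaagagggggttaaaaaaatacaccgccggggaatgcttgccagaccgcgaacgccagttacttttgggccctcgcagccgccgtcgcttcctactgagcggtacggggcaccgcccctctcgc

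The 2 muscle isoforms and the ubiquitous Cox8a differed in these letters. The Cox6a2 window held 4 E-boxes, starting at positions -196, -107, -35 and -20 from the start, and a MEF2 motif at -50, and the Cox8b window held 2 E-boxes at -100 and -62 and a TATA box at -39. Cox8a held 1 E-box at -154, 2 ETS motifs at -57 and -19 and a CRE at -76, and Ndufa1 held an ETS motif at -171. Across the 66 nuclear subunit windows 25.8% held the ETS motif against 9.52% of the 19005 protein-coding windows, and 16.7% held the NRF1 motif against 6.9%. An E-box was in 53% against 62.8%, the MEF2 motif in 1.52% against 3.16%, the TATA box in 7.58% against 12.3%, the YY1 motif in 3.03% against 1.71% and the CRE in 3.03% against 2.03%. Cox6a2 and Cox8b are not among the 66. The matches in the 4 printed windows do not overlap each other. They describe letters in the window and are not measured binding sites.

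The respiratory genes as a group did not separate the runners from the controls. With limma on log2(FPKM + 0.5), 0 of the 105 genes passed an adjusted p of 0.05, where 5.72% of the 13863 tested genes did (3.49% higher and 2.23% lower at 0 h p.r.). None passed with a fold of at least 2 as well, against 2.7% of all tested genes. Ndufa1 was the only one to differ by 2-fold or more in either direction, against 4.91% of all tested genes. At an unadjusted p under 0.05 there were 2 genes, Ndufa1 and Ndufaf1, where 22.6% of all tested genes lay under it, and limma's voom on recovered reads also called 0 at the adjusted threshold and gave 2 unadjusted among 104 genes. The count at the unadjusted threshold ranged from 1, without NC replicate 1 or NC replicate 3, to 7, without NC replicate 2 or with quantile normalization. In none of the 105 did all runners lie above or all below the controls, against 15.6% of the tested genes (8.15% higher and 7.47% lower). The intervals limit how large a difference could be: the 95% interval lay within 2-fold either way for 88 of 105 genes, compared with 78.3% of all tested genes.

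**Figure D1:**
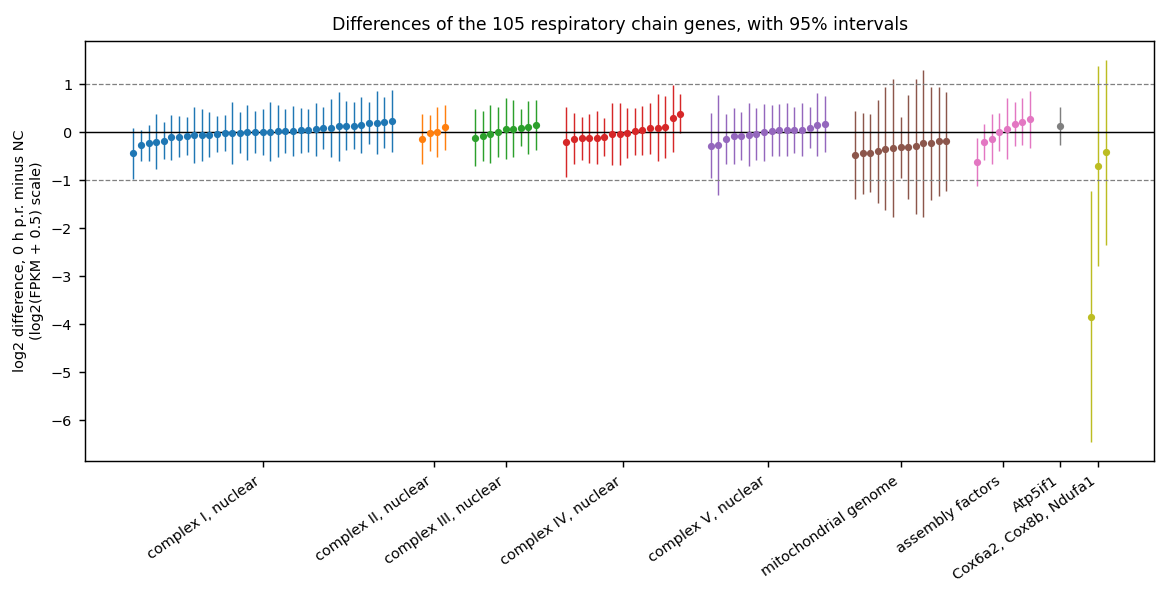
Log2 difference (0 h p.r. minus NC, log2(FPKM + 0.5) scale) of each of the 105 genes with its 95% interval from limma, by complex and genome, with dashed lines at a fold of 2. The nuclear subunits sit around 0 (43 above and 37 below), the 13 mitochondrial genes all sit below 0 with wider intervals, and Ndufa1 is at -3.84.

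The 80 nuclear subunits, which leave out the 3 genes kept apart, were centred on 0. Their median difference was 0.0052 on the log2 scale, beside -0.0014 for all tested genes, with a range from -0.44 to 0.39, and 79 of the 80 intervals lay within 2-fold. The exception was Atp5pb, a peripheral stalk subunit of ATP synthase, whose row held a mean of only 1.35 FPKM while the other stalk genes Atp5pd and Atp5po had 136 and 138 FPKM. RefSeq lists 3 pseudogenes of Atp5pb, and how reads shared with such copies were counted is not given in the sources used here. Of the 102 symbols 42 have at least 1 listed pseudogene and 3 occupy 2 rows, so the levels of those genes are uncertain. With the 3 genes kept apart, the 8 assembly factors and Atp5if1 included, the set holds 92 nuclear-encoded genes. Their differences ranged from -3.84, for Ndufa1, to 0.39, and 87 of the 92 intervals lay within 2-fold.

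Complex I, the NADH dehydrogenase, had the most subunits and moderate levels. The 35 nuclear subunits other than Ndufa1 had a median level of 59.0 FPKM and a median difference of 0.0075, with 19 above 0 and 16 below. Ndufa3, a small accessory subunit, had the largest rise in value, with 41.2, 83.4, 37.3 and 43.1 FPKM in NC and 83.7, 48.9, 60.8 and 42.9 FPKM at 0 h p.r. The groups overlapped through the high NC replicate 2 and the low 0 h p.r. replicate 4, and the difference was 0.24 (SE 0.29, limma adjusted p = 0.693), with 0.49 when NC replicate 2 was left out and 0.054 when 0 h p.r. replicate 1 was. Ndufs1, a core subunit that carries iron-sulfur clusters, gave 28.1 to 33.4 FPKM in NC but 18.6 to 52.5 FPKM in the runners, so the runners spread on both sides of the controls. Ndufs3 and Ndufs7, which also belong to the arm that passes electrons on, did the same, from 31.2 to 84.8 FPKM and from 41.0 to 100 FPKM at 0 h p.r.

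Complex II, succinate dehydrogenase, is encoded wholly in the nucleus, and its 4 genes had a narrow range of levels. Sdha and Sdhb hold the flavin and the iron-sulfur clusters and Sdhc and Sdhd anchor them in the membrane. Sdhc had the highest mean level, 90.1 FPKM. Sdhb had 89.1, 98.4, 68.1 and 72.1 FPKM in NC and 113, 62.1, 77.2 and 54.6 FPKM at 0 h p.r., a difference of -0.13 (SE 0.23, limma adjusted p = 0.794), and Sdhd differed by 0.10 (SE 0.21, limma adjusted p = 0.834). In both genes the highest library was 0 h p.r. replicate 1, and the groups overlapped.

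Complex III, the cytochrome bc1 complex, passes electrons from ubiquinol to cytochrome c. Its 9 nuclear rows had a median level of 81.1 FPKM and a median difference of 0.075, with 6 above 0 and 3 below. Uqcrq, a small subunit beside cytochrome b, had 36.1, 63.5, 37.8 and 37.5 FPKM in NC and 62.5, 38.6, 55.0 and 37.3 FPKM at 0 h p.r. NC replicate 2 lay above every runner while the other controls lay at the lower end of the runners, so the groups overlapped. The difference was 0.15 (SE 0.23, limma adjusted p = 0.765), and with a library left out it ranged from 0.017 without 0 h p.r. replicate 1 to 0.34 without NC replicate 2. The lower end was a row of Uqcrb (ENSRNOG00000024967), with 45.3 ± 14.4 FPKM in NC and 42.2 ± 14.5 FPKM at 0 h p.r. (SD, n = 4) and a difference of -0.11 (SE 0.26, limma adjusted p = 0.862), and Uqcrb is on 2 rows.

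Complex IV, cytochrome c oxidase, had the highest median level of the nuclear groups, 157 FPKM over 16 genes, with 7 differences above 0 and 9 below. Cox4i1, its ubiquitous regulatory subunit, was the most abundant nuclear gene of the whole set at a mean of 431 FPKM. Its values were 468, 640, 363 and 347 FPKM in NC and 502, 349, 412 and 371 FPKM at 0 h p.r., with overlapping groups and a difference of -0.12 (SE 0.23, limma adjusted p = 0.810), which was 0.055 when NC replicate 2 was left out.

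Cox4i2 and Ndufa4l2 are paralogs that textbooks tie to low oxygen, in which they can take the place of Cox4i1 and Ndufa4. Cox4i2 had 35.2, 39.6, 35.7 and 26.4 FPKM in NC and 40.5, 58.8, 36.3 and 45.1 FPKM at 0 h p.r. Of the 4 runners 3 lay above every control, and 0 h p.r. replicate 3 lay within them. This was the largest positive difference of the 105 genes, 0.39 (SE 0.18, 95% interval -0.01 to 0.79), and it did not pass (limma adjusted p = 0.24, 0.176 to 0.553 over 17 alternatives). It fell to 0.25 when 0 h p.r. replicate 2 was left out. Of the summed Cox4i1 and Cox4i2, Cox4i2 made up 5.83% to 8.97% in NC and 7.46% to 14.4% in the runners. Ndufa4l2 was at 184, 260, 307 and 145 FPKM in NC and at 213, 228, 231 and 216 FPKM at 0 h p.r., so the runners were tightly grouped inside the range of the controls. Its difference was 0.05 (SE 0.23, 95% interval -0.46 to 0.55, limma adjusted p = 0.938).

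ATP synthase had a median level of 137 FPKM over 16 nuclear genes and a median difference of 0.017. Its catalytic subunit Atp5f1b averaged 426 FPKM, just under Cox4i1. Atp5f1a, which forms the ring with it, had 233, 247, 220 and 191 FPKM in NC and 402, 190, 295 and 175 FPKM at 0 h p.r. The runners held both the highest and the lowest values, and the difference was 0.18 (SE 0.26, limma adjusted p = 0.754). Atp5md, a small membrane subunit, had the lowest difference of the nuclear genes of the complex, -0.28 (SE 0.30, limma adjusted p = 0.65, -0.51 leaving out NC replicate 4 and -0.069 leaving out 0 h p.r. replicate 2), with 27.3 ± 10.1 FPKM in NC and 21.9 ± 5.85 FPKM at 0 h p.r. (SD, n = 4). The inhibitor Atp5if1 blocks the enzyme when it runs backwards. In deposited FPKM it was the steadiest gene of the set among the runners, at 122, 128, 125 and 129 FPKM, whereas the controls were at 104, 168, 108 and 94.9 FPKM. Its difference was 0.13 (SE 0.18, limma adjusted p = 0.740) and ranged from 0.032 to 0.30 when each library was left out.

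The assembly factors, which help to build complex I and are not part of it, were less abundant than the subunits, with a median level of 6.94 FPKM against 90.7 FPKM for the nuclear subunits. Ndufaf1, which acts on an early membrane intermediate, had 5.58, 3.81, 5.29 and 4.23 FPKM in NC and 4.54, 2.89, 2.09 and 2.50 FPKM at 0 h p.r. Of the runners 3 lay below every control, and replicate 1 lay among them. The difference was -0.61 (SE 0.22), with an unadjusted p of 0.022 and an adjusted p of 0.142 by limma, so it did not pass. The other 7 factors lay between -0.21 and 0.27.

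**Figure D2:**
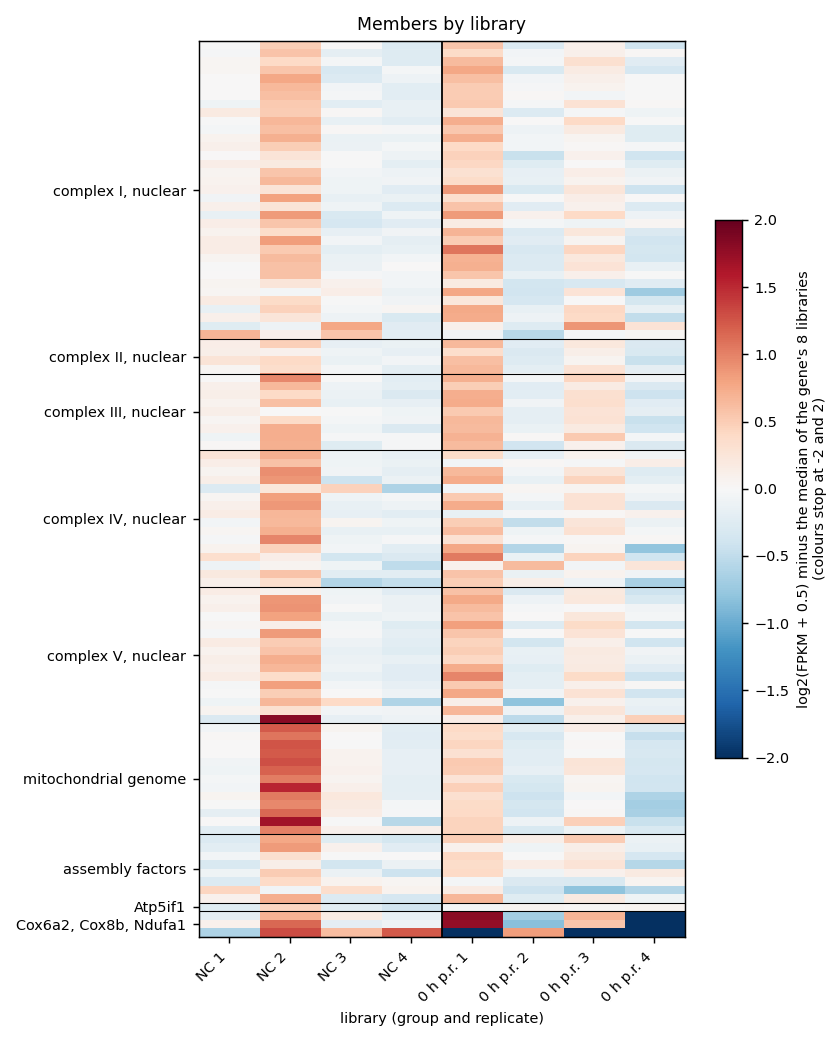
Log2(FPKM + 0.5), in the deposited scaling, of each of the 105 genes (rows, by group, most abundant first) in each of the 8 libraries (columns), as the distance from that gene's median over the libraries. NC replicate 2 and 0 h p.r. replicate 1 are raised over nearly all rows, the mitochondrial rows are raised most in NC replicate 2, and the last rows, Cox6a2, Cox8b and Ndufa1, follow patterns of their own.

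In deposited FPKM the main differences among the libraries lay within the groups. In NC, replicate 2 was the highest in 96 of the 105 genes, whereas it was the highest in 37.1% of all tested genes. At 0 h p.r., replicate 1 was the highest in 92 of the 105, against 28.0% of all tested genes, and replicate 4 the lowest in 63, against 30.8%. The median ratio of NC replicate 2 to the mean of the other controls was 1.57 over the nuclear subunits and 0.988 over all tested genes, and the median ratio of 0 h p.r. replicate 1 to the mean of the other runners was 1.51 and 0.980. With each library scaled to the same FPKM sum, NC replicate 2 was the highest control in 37 of the 105 genes and NC replicate 1 in 55, and the median ratio of NC replicate 2 over the nuclear subunits was 0.984, against 0.620 over all tested genes. As a share of recovered reads it was the highest in 81 of 104, with a ratio of 1.29 against 0.815. The nuclear subunits summed to 1.51%, 1.36%, 1.32% and 1.296% of the FPKM in NC and to 1.59%, 1.27%, 1.42% and 1.24% at 0 h p.r. The position of 0 h p.r. replicate 1 was less dependent on the scaling, as it was the highest runner in 82 of 105 at the same sum and in 88 of 104 by share of reads, with ratios over the nuclear subunits of 1.22 and 1.33. Among the runners the genes that did not follow replicate 1 included Cox6a1, Cox8a, Cox4i2, Ndufa4l2 and Atp5if1. The median FPKM over the 80 nuclear subunits ran from 72.8 to 115 in NC and from 67.5 to 120 at 0 h p.r.

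In deposited FPKM the ratio in NC replicate 2 moved with gene length. Over the nuclear subunits it was 1.66 in the shortest 27 genes, 1.497 in the middle 26 and 1.28 in the longest 27 (Spearman's rho -0.516 across 80 genes, which share the library and are not independent). Over all tested genes with an estimated length it was 1.28, 1.03 and 0.787. Each set was divided by its own lengths. In 0 h p.r. replicate 1 the same ratio was 1.51, 1.47 and 1.63 over the 3 classes of subunits and 1.00, 0.973 and 0.968 over all tested genes, so the fall with length was small over all genes and not seen over the subunits.

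Of the 13 mitochondrial genes all but Mt-atp8 had higher mean levels than every nuclear gene of the set. Their mean levels ran from 357 FPKM for Mt-atp8 to 27984 FPKM for Mt-atp6, with Mt-co1 at 23512 FPKM, Mt-co3 at 21189 FPKM and Mt-co2 at 17008 FPKM. Mt-nd2 at 11260 FPKM was the highest of complex I, and Mt-cyb, the only mitochondrial gene of complex III, was at 10568 FPKM. Together they made up 21.5%, 31.1%, 21.9% and 19.3% of the summed FPKM in NC and 21.6%, 17.8%, 19.9% and 16.3% at 0 h p.r. The control share was highest in NC replicate 2, and the runners overlapped the other controls. Mt-atp8 and Mt-atp6 overlap, as do Mt-nd4l and Mt-nd4, and Mt-nd6 is read from the other strand. The strand setting of the counting is not given in the sources used here, so the levels of these 5 genes are uncertain.

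All 13 mitochondrial differences were below 0 and 0 passed. Their median was -0.31 on the log2 scale, the range was -0.47 for Mt-nd6 to -0.19 for Mt-nd4, and the smallest limma adjusted p was 0.547, for Mt-nd4l. Since the genes share transcripts and libraries, 13 of the same sign are not 13 separate observations. Mt-nd6 had 5045, 9983, 5624 and 4319 FPKM in NC and 6106, 3635, 4701 and 3185 FPKM at 0 h p.r., and Mt-co1, which encodes the catalytic subunit of complex IV, had 21802, 45113, 21568 and 18254 FPKM in NC and 27378, 17197, 21291 and 15489 FPKM at 0 h p.r. In both the groups overlapped and NC replicate 2 lay far above the rest.

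Leaving out that library changed the size of the mitochondrial difference, by an amount that depends on the scaling. In deposited FPKM the 13 genes were 1.89 to 3.59 times as high in NC replicate 2 as in the mean of the other controls, with a median of 2.34, and it was the highest control in all 13. At the same FPKM sum it was again the highest control in all 13, with a median ratio of 1.47, and by share of recovered reads in all 12 with a recovered value, with a ratio of 1.95. Without it the median difference was -0.028 in deposited FPKM, and at the same sum it was -0.19 without that library and -0.31 with it. In deposited FPKM, leaving out any other library gave values down to -0.465. The intervals were wide, with a median distance of 1.08 from the estimate to either end on the log2 scale compared with 0.53 for the nuclear subunits, and 1 of 13, that of Mt-atp8, lay within 2-fold, where 78.3% of all tested genes did. This width depends on the scaling and on the same library: the median distance was 0.51, with all 13 within 2-fold, when the libraries were scaled to the same sum, 0.39 with 12 of 13 under quantile normalization, and 0.60 with all 13 when NC replicate 2 was left out. Quantile normalization gives genes of the same rank the same value in every library, so its width for such abundant genes is partly set by the method. The median of the nuclear subunits ranged from -0.153 to 0.179 when each library was left out.

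Cox6a2 and Cox8b, the heart and skeletal muscle isoforms of complex IV subunits, varied more among the runners than any other gene of the set except Ndufa1. Cox6a2 had 150, 276, 192 and 152 FPKM in NC and 596, 106, 274 and 21.6 FPKM at 0 h p.r. Cox8b had 99.6, 208, 82.0 and 87.6 FPKM in NC and 318, 52.4, 138 and 8.85 FPKM at 0 h p.r. Among the runners both genes were highest in replicate 1, then replicate 3, then replicate 2, and lowest in replicate 4, a spread of 27.6-fold and 35.9-fold, and the runners lay on both sides of the controls. The differences were -0.42 (SE 0.85, limma adjusted p = 0.833) and -0.70 (SE 0.93, limma adjusted p = 0.721). Both turned above 0 when 0 h p.r. replicate 4 was left out, to 0.47 and 0.26.

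Their ubiquitous partners did not follow. Cox6a1 had 269, 369, 232 and 224 FPKM in NC and 236, 250, 242 and 271 FPKM at 0 h p.r., and Cox8a had 174, 249, 140 and 136 FPKM in NC and 141, 155, 159 and 166 FPKM at 0 h p.r. Among the runners both were lowest in replicate 1 and highest in replicate 4, with spreads of 1.15-fold and 1.17-fold. The differences were -0.10 (SE 0.18) and -0.13 (SE 0.20), with limma adjusted p-values of 0.795 and 0.762.

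The isoform share therefore moved with the muscle isoform. Cox6a2 made up 35.8%, 42.8%, 45.3% and 40.4% of the summed Cox6a1 and Cox6a2 FPKM in NC and 71.6%, 29.8%, 53.1% and 7.37% at 0 h p.r. Cox8b made up 36.4%, 45.5%, 36.9% and 39.2% of the summed Cox8a and Cox8b in NC and 69.2%, 25.3%, 46.5% and 5.08% at 0 h p.r. The 2 shares put the runners in the same order, and the controls lay close together.

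**Figure D3:**
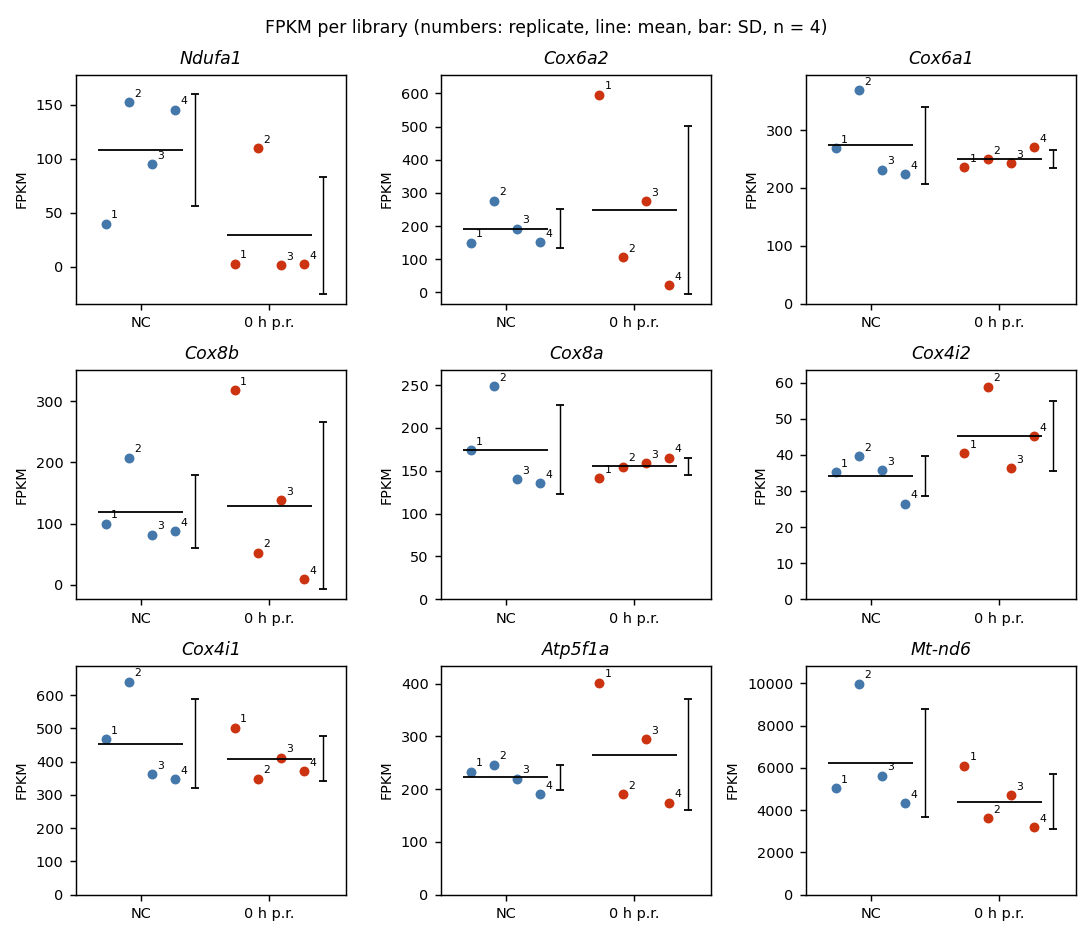
FPKM of 9 genes in the 4 NC and 4 0 h p.r. libraries, numbered by replicate, with the mean (line) and SD (bar, n = 4), which runs below 0 where the SD exceeds the mean. Ndufa1 is low in 3 of the 4 runners (1.47 to 2.82 FPKM) and not in replicate 2 (110 FPKM), and Cox6a2 and Cox8b spread widely among the runners while Cox6a1 and Cox8a do not.

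The muscle isoforms were set against the mean of 26 skeletal muscle markers, which pools fast-fibre, slow-fibre and general genes that did not move alike. The mean log2(FPKM + 0.5) of all 26 was 6.84, 7.49, 7.87 and 7.31 in NC and 9.24, 7.00, 7.06 and 4.92 at 0 h p.r. The fast-fibre markers alone had 6.02, 8.69, 8.50 and 7.68 in NC and 11.11, 8.64, 10.04 and 5.96 at 0 h p.r., and the slow-fibre markers 7.96, 6.80, 7.75 and 7.43 in NC and 7.52, 5.66, 3.31 and 4.30 at 0 h p.r. Among the runners the fast-fibre mean put the libraries in the same order as the isoforms, whereas the slow-fibre mean was lowest in replicate 3, where both isoforms were second highest. Across the 8 libraries Cox6a2 correlated with the mean of all 26 markers at r = 0.929 (exact permutation p = 0.00501, two-sided, adjusted over 4 relations 0.0188) and rho = 0.857 (exact permutation p = 0.0107, adjusted 0.0429). For Cox8b r was 0.888 (exact permutation p = 0.00942, adjusted 0.0188) and rho was 0.619 (exact permutation p = 0.115, adjusted 0.151). Without the 2 libraries farthest from the median of the marker mean, 0 h p.r. replicates 1 and 4, r was 0.356 and 0.159, so both relations rest on those libraries. Within the controls both isoforms were highest in replicate 2 while the marker mean was highest in replicate 3, where Cox8b was lowest. With 4 libraries a group no coefficient is given within groups.

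The subunit means were set against the muscle markers in the same way, as descriptions. The mean of the 80 nuclear subunits gave r = 0.617 and rho = 0.571, and r = 0.101 without 0 h p.r. replicates 1 and 4. The mean of the 13 mitochondrial subunits gave r = 0.519 and rho = 0.738, and r = 0.383 without those libraries. Over all 8 libraries both r were below those of the isoforms, but the mitochondrial rho was above that of Cox8b and the mitochondrial r without those libraries was above both isoforms'. Whether these values differ was not tested. The fast-fibre markers had a median difference of 1.03 with 0 of 9 called, and the slow-fibre markers one of -3.23 with 0 of 9 called. All 9 fast-fibre differences lay above 0 (0.77 to 1.76) and all 9 slow-fibre differences below 0 (-3.72 to -0.37). The standard errors were large: the lowest, Myl3 at -3.72, had an SE of 1.28 and limma adjusted p = 0.124. Of all tested genes 5.72% were called, a share at which lists this short may hold none by size alone. With the muscle marker mean as a covariate 0 of the 105 respiratory genes passed the adjusted threshold. The count over all tested genes in that fit is given with the processing below.

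**Figure D4:**
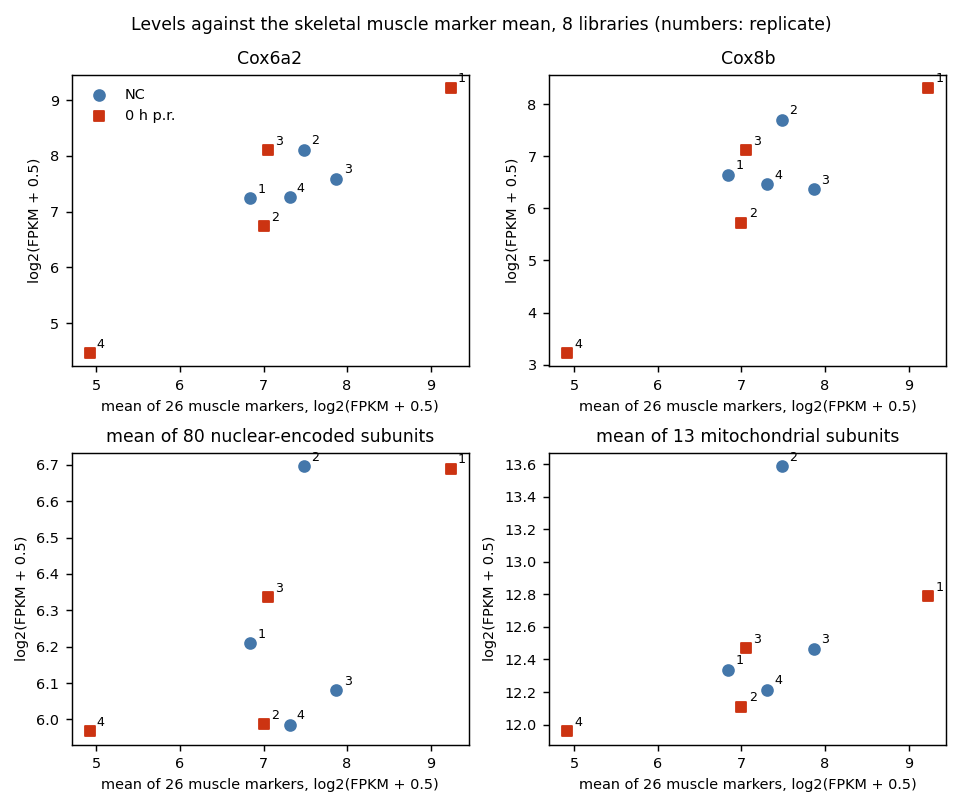
Log2(FPKM + 0.5) of Cox6a2, Cox8b and the means of the 80 nuclear and 13 mitochondrial subunits (vertical axes) against the mean of 26 skeletal muscle markers (horizontal axes) in the 8 libraries, numbered by replicate. 0 h p.r. replicates 1 and 4 lie at the ends of the marker range, at 9.24 and 4.92, and carry the slope for Cox6a2 and Cox8b.

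Ndufa1 (ENSRNOG00000040005), a small membrane subunit of complex I encoded on the X chromosome, stood apart from all the others. Its values were 39.9, 152, 94.99 and 145 FPKM in NC and 2.82, 110, 1.47 and 2.34 FPKM at 0 h p.r., from 151, 321, 297 and 460 recovered reads in NC and 8, 425, 4 and 9 at 0 h p.r. The runners in replicates 1, 3 and 4 lay far below every control and replicate 2 lay within the controls, so the groups overlapped. The difference was -3.84 (SE 1.16, 95% interval -6.46 to -1.22, unadjusted p 0.00891), and it did not pass by limma with Benjamini-Hochberg adjustment (adjusted p = 0.0882, 0.0033 to 0.214 over 17 alternatives, of which 1 passed). The fit that passed left out 0 h p.r. replicate 2 and gave a difference of -5.18.

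No other subunit of complex I shared this pattern. The other 35 nuclear subunits differed among the runners by 1.19-fold to 2.82-fold from lowest to highest. Asking of all 15590 genes for a lowest value over NC and 0 h p.r. replicate 2 at least 8-fold above the highest of 0 h p.r. replicates 1, 3 and 4, with the former at least 1 FPKM, found 1 gene, Ndufa1, and a fold of 4 also found 1 (a pattern chosen after its values were seen). In Ndufa1 that fold was 14.1. RefSeq lists a pseudogene, Ndufa1-ps2, at another locus. Whether reads were shared with it was not tested, and how such reads were counted is not given in the sources used here.

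The rest of the pathway was described by lists taken from textbook roles. Their counts are to be read beside the 5.72% of all tested genes that were called, a share at which lists this short may hold none by size alone. Of 35 tested assembly factors of complexes I to V 0 were called, with a median of -0.05. The lowest was Acad9, a complex I assembly factor, at 12.9 ± 2.53 FPKM in NC and 8.18 ± 2.22 FPKM at 0 h p.r. (SD, n = 4, difference -0.64, limma adjusted p = 0.0964), and the highest was Ttc19, of complex III, at 4.53 ± 0.62 and 6.59 ± 1.11 FPKM (difference 0.49, limma adjusted p = 0.104). Of 8 electron carriers and feeders 0 were called. Gpd2, the mitochondrial glycerol phosphate dehydrogenase, had the largest value, from 3.98 ± 1.13 FPKM in NC to 10.1 ± 6.56 FPKM at 0 h p.r. (difference 1.02, limma adjusted p = 0.248). It passed in 2 of 17 alternatives, with the muscle covariate (1.21, limma adjusted p = 0.0107) and after 0 h p.r. replicate 4 was left out (1.49, limma adjusted p = 0.0304), and its lowest difference was 0.66, after leaving out 0 h p.r. replicate 1. Etfb had the lowest value, -0.47 (limma adjusted p = 0.129). Of the 12 tested enzymes of the tricarboxylic acid cycle 0 were called, with Idh3a at 0.50 and Idh2 at -0.50 (limma adjusted p = 0.386 and 0.383). Idh3a was at 0.23 leaving out 0 h p.r. replicate 1 and at 0.74 leaving out 0 h p.r. replicate 4. Idh2 passed in 1 of 17 alternatives, without 0 h p.r. replicate 1 (-0.84, limma adjusted p = 0.0404), and shrank to as little as -0.32 when another library was left out. Of 16 genes of mitochondrial translation 0 were called, with Tsfm at 0.41 (0.25 leaving out NC replicate 2) and Mtif3 at -0.45 (limma adjusted p = 0.305 and 0.0852).

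Among 20 tested regulators of mitochondrial biogenesis 1 was called, where 5.72% of all tested genes were, so the share is near the background. It was Pprc1, a coactivator related to Ppargc1a, which rose. Its values were 5.87, 3.51, 5.80 and 7.42 FPKM in NC and 14.3, 16.1, 16.5 and 8.75 FPKM at 0 h p.r. All runners lay above all controls, as in 8.15% of the tested genes, and the difference was 1.23 (SE 0.25, limma adjusted p = 0.0288, 0.00856 to 0.138 over 17 alternatives, of which 10 passed). It did not pass when NC replicate 1 or 3, or runner replicate 1, 2 or 3, was left out (limma adjusted p = 0.0784, 0.0655, 0.0713, 0.0983 and 0.0862), nor with the replicate block (0.1) or the libraries scaled to the same sum (0.138). Ppargc1a, the coactivator best known from trained muscle, had 0.493, 0.479, 0.697 and 0.663 FPKM in NC and 2.45, 1.03, 9.41 and 0.182 FPKM at 0 h p.r., with 3 runners above and replicate 4 below the controls (difference 1.12, SE 0.68, limma adjusted p = 0.378). Its means, 0.583 FPKM in NC and 3.27 FPKM at 0 h p.r., are low enough that adding 0.5 shrinks the log2 difference. The paper, which used DESeq2 on counts, lists Ppargc1a among its differentially expressed genes at 0 h p.r. Esrrg, a nuclear receptor of oxidative tissue, had the lowest difference of the list, -0.87 (limma adjusted p = 0.207). Over 16 alternatives it ranged from -1.57 to -0.65 and passed in 0 (limma adjusted p = 0.0553 to 0.397).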

How the data were processed

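Polyadenylated RNA was captured and stranded libraries were made by the authors. Per the submitters' processing notes and the methods, reads were aligned with HISAT2 2.1.0 to Rnor_6.0 and counted with featureCounts 1.6.3, with HISAT2 set to a stranded (RF) protocol. The strand option of the counting is not given in the sources used here. The deposited table holds FPKM values per library, which the authors derived from counts and gene lengths and which are also scaled between libraries. Its log2 fold changes and p-values, which the authors obtained with DESeq2 1.30.1, were not used.

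Genes with at least 0.5 FPKM in at least 4 of 8 libraries (13863, with 1727 left out) were compared between groups as log2(FPKM + 0.5) with limma 3.58.1 in R 4.3.3 (lmFit, eBayes with a trend), two-sided, with Benjamini-Hochberg adjustment over all tested genes and no covariate. The fold changes are on this scale, which understates changes of low genes. An adjusted p under 0.05 was a call. FPKM are not counts, so no count model was the main test. Whole reads were recovered from the steps between FPKM values for 15589 of 15590 genes (99.99%, tolerance 0.02 reads). The exception was Mt-co1, one of the most abundant genes of the set. The recovered depth, the shares of recovered reads and voom therefore leave it out. The scripts were tested on simulated data before use. With 4-fold changes put in, 99.5% of the changed genes were called, and 8.33% of the calls were false. The simulation gave every gene the same relative spread and no library a shift of its own, unlike these data.

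The respiratory genes and lists were chosen with earlier results of these data known. Named with values were genes past the adjusted p, the genes kept apart and their partners, the mitochondrial genes, the extremes and most abundant gene of each complex, Cox4i2 and Ndufa4l2, and the extremes and calls of each other pathway list, with further genes added to show spread. Alternatives were the pseudocount, filter, scaling, a replicate block, a muscle covariate, voom and leaving out each library. Nothing in the labels says that libraries came from separate animals, so p-values measure the spread between these samples. Correlations used exact permutation over 8 libraries (scipy 1.17.1).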

Additional observations from a re-analysis of the deposited data

Results flagged for a closer look

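In each of 98 groups of 4 libraries the gap between the extreme library and its nearest neighbour was divided by the range of the group. Values were taken as log2(FPKM + 0.5), or as log2 of the share where shares of recovered reads were used. The ratio was compared with Dixon's 95% critical value for groups of that size. For a single group chosen without regard to its values chance gives a hit about 1 time in 20. The genes were partly chosen for their values and share libraries, so the count of 6 cannot be read against that rate. Of the 6, 5 had NC replicate 2 as the highest library. The ratio was 0.841 for Mt-nd2, 0.833 for Mt-co2, 0.857 for Mt-co3, 0.92 for the complex III subunit Uqcrq and 0.857 for the tricarboxylic acid cycle enzyme Idh3a, all in NC. For Ndufa1 at 0 h p.r. it was 0.869, with replicate 2 as the highest library. With libraries scaled to the same FPKM sum only Ndufa1 of these 6 stayed past the critical value, and as a share of recovered reads Ndufa1, Mt-nd2, Mt-co2 and Mt-co3 did.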

How the results depend on the processing

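The count of respiratory genes past the adjusted threshold stayed at 0 with pseudocounts of 0.1 and 1, other filters, other scalings, the muscle covariate and voom, and was 0 to 1 when each library was left out, the 1 being Ndufa1 without 0 h p.r. replicate 2 (likewise 0 to 1 with a fold of 2 as well). The count over the other pathway lists (assembly, regulators, carriers, tricarboxylic acid cycle and translation, without the cell-type markers), 1 as reported, was 0 with each library scaled to the same sum. It was 2 with quantile normalization, 3 with the muscle covariate and 0 to 2 with a library left out. All tested genes gave 172 calls scaled to the same sum, 1211 with the muscle covariate and 251 to 1178 with a library left out, against 793.

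The replicate block, in which libraries of the same number form a block, called 0 of the respiratory genes, 0 of the other pathway lists and 235 of all tested genes. Deviations of same-numbered libraries correlated at -0.141, -0.0708, 0.0717 and 0.00562, so the numbers were not taken as a pairing.

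Quantile normalization turned the sign of Ndufa4l2 (-0.022), Mt-nd1 (0.086), Sdhd (-0.019), Sdhc (-0.12) and Cyc1 (-0.12), and the cause was not tested. With a library left out, the log2 difference ranged from -1.11 to 0.47 for Cox6a2, -1.44 to 0.26 for Cox8b, -0.19 to 0.050 for Cox6a1, -0.23 to 0.055 for Cox8a and -0.14 to 0.22 for Ndufa4l2. It ranged from -0.34 to 0.12 for Mt-nd1, -0.39 to 0.11 for Mt-nd2, -0.46 to 0.28 for Mt-nd4, -0.45 to 0.040 for Mt-co3 and -0.39 to 0.092 for Mt-atp6. For Sdhb it was -0.34 to 0.0093, for Sdhc -0.18 to 0.14, for Sdhd -0.068 to 0.21, for Uqcrb (ENSRNOG00000024967) -0.32 to 0.087 and for Atp5f1a -0.051 to 0.35. For genes described beyond the rule for named genes, run after seeing the data, it was -0.24 to 0.055 for Cox4i1, -0.21 to 0.20 for Cyc1 and -0.14 to 0.026 for Tfam. None of these passed the adjusted threshold. Voom with TMM factors was not run, and voom with the deposited scaling was chosen after seeing the data. With 4 libraries a group the median 95% interval of a tested gene spanned 0.414 on the log2 scale to either side, which limits what could be detected.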

Other observations

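Genes of the regulator and carrier lists that fall outside the rule for named genes were picked here after their values were seen. Nrf1, a transcription factor of nuclear respiratory genes, had 6.79, 5.80, 6.07 and 6.06 FPKM in NC and 8.13, 9.35, 8.83 and 7.01 FPKM at 0 h p.r. Every runner lay above every control, as in 8.15% of the tested genes, but the difference of 0.40 (SE 0.12) did not pass (limma adjusted p = 0.0982). Cycs, which encodes cytochrome c, the carrier between complexes III and IV, had 22.1, 36.5, 25.3 and 19.9 FPKM in NC and 60.8, 36.2, 43.7 and 24.7 FPKM at 0 h p.r., with overlapping groups (difference 0.63, SE 0.28, limma adjusted p = 0.222, and 0.73 with adjusted p = 0.0427 under the muscle covariate). Cyc1, the cytochrome c1 of complex III, had 72.9 to 92.5 FPKM in NC and 56.1 to 132 FPKM at 0 h p.r. (difference 0.02, SE 0.25, limma adjusted p = 0.982). Tfam, which packages mitochondrial DNA and takes part in its transcription, was at 19.0 ± 3.23 FPKM in NC and 17.8 ± 1.31 FPKM at 0 h p.r. (SD, n = 4, difference -0.08, SE 0.13, limma adjusted p = 0.782).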
